A study of Arabidopsis thaliana with 22 samples.

Results

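The genes encoded by the mitochondrial genome of *Arabidopsis thaliana* were examined in RNA-seq libraries of whole seedlings. The members were all rows of the deposited count tables whose gene identifier begins with ATMG, which were 122 of 27416 genes. The other rows were 88 plastid genes (ATCG) and 27206 nuclear genes. The study asked how AHL22, a protein that binds AT-rich DNA at the nuclear matrix, acts with the transcriptional repressors FRS7 and FRS12 and with the histone deacetylase HDA15. Seedlings 5 days old, grown under 16 h light and 8 h dark, were sequenced in 4 mutants and in Col-0, the wild-type accession. The mutants were *ahl22* (*ahl22-1*), *frs7 frs12* (*frs7-1 frs12-1*), *ahl22 frs7 frs12* (the triple mutant, obtained by crossing these lines) and *hda15* (*hda15-1*), with 1 allele per gene. The study calls *ahl22-1* and *hda15-1* T-DNA mutants and had the *frs7-1 frs12-1* double mutant from another laboratory. No agent was given. Each mutant had 2 libraries. Col-0 had 4 libraries in 2 pairs, since the table of *ahl22 frs7 frs12* holds a Col-0 pair of its own (hereafter the triple-table Col-0 pair) and the other 3 tables hold the same Col-0 pair (the shared pair of Col-0). The 12 distinct libraries were described as biological replicates, and RNA was taken from whole plants, so for any level below fewer cells rich in mitochondria and less RNA per cell cannot be told apart.

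Plant mitochondria keep a small genome that codes for core subunits of the respiratory complexes, for part of the mitochondrial ribosome and for proteins that assemble cytochrome c, beside many open reading frames without a known product. Most subunits of the same complexes are encoded in the nucleus and imported. Mitochondrial transcripts in plants do not carry the long stable poly(A) tails of nuclear mRNA, and polyadenylation there marks RNA for decay. These libraries were made from poly(A)-selected RNA, so each level below is that of the reads left after this selection.

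In Columbia plants a large stretch of mitochondrial DNA also lies in chromosome 2, and reads of such copies limit what a count of an ATMG gene means. In TAIR10.1, 64 nuclear genes of the tables held a stretch of at least 150 bases at 95% identity or more of the mitochondrial sequence, and 60 of them lie in this insertion, within chr2:3239693-3503476. The coding sequence of atp9, the subunit of the membrane ring of ATP synthase and by length the most abundant annotated mitochondrial gene here, is shown because the same 225 bases occur in both genomes. In RefSeq TAIR10.1 it lies at MT:270961-271185 (minus strand) and, in the gene AT2G07671, at chr2:3251856-3252080 (minus strand), with 0 mismatches. No letters are capitalised since none differ.
atp9: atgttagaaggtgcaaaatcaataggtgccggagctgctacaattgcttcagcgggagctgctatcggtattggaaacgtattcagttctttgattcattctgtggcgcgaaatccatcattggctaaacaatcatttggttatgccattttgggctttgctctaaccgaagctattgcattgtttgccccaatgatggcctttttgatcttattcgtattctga
The genes nad3 (a complex I subunit) and rps12 (a protein of the small ribosomal subunit) are neighbours, and their junction is shown because both had more counts in each *hda15* library than in any other library. The last 60 bases of nad3 and the first 60 bases of rps12 are in lower case, and the 45 bases between the coding sequences are in capitals. The stretch is MT:288341-288505 (plus strand), and chr2:3270305-3270469 (plus strand) holds the same bases with 0 mismatches, across AT2G07751 and AT2G07675.
nad3 to rps12: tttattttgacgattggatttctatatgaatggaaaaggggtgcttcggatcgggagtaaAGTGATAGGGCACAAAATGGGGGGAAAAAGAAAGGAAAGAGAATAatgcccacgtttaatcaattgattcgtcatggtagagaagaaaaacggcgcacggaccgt
In all, these 165 bases occur at 3 positions of chromosome 2. The count tables carry the identifiers of TAIR10, whose own mitochondrial sequence was not used here, so these genes were matched by name.

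The labels of the lines were checked first in CPM, counts per 1000000 after TMM scaling over the 12 libraries. *HDA15* had 3.56 to 3.57 CPM in *hda15*, against 34.0 to 56.1 CPM in the other libraries. *FRS12* had 3.60 to 4.17 CPM in the lines with *frs12*, against 28.0 to 38.2 CPM elsewhere, whereas *FRS7* differed less, with 8.02 to 11.3 CPM in the lines with *frs7* and 13.6 to 20.4 CPM elsewhere. *AHL22* had 0.85 to 1.66 CPM in the lines with *ahl22*, but also only 1.44 to 1.75 CPM in *frs7 frs12* and 2.99 to 3.02 CPM in the triple-table Col-0 pair, against 11.97 to 18.4 CPM in *hda15* and the shared pair of Col-0. The 2 Col-0 pairs thus differ although both are named Col-0, and every mutant was compared with both. The libraries held 12537767 to 21400580 counts. Over all 12 libraries, 14 shoot markers such as photosynthesis genes summed to 70548 to 85501 counts per 1000000. The 15 root markers summed to 1168 to 3416 counts per 1000000. These marker sums were not TMM-scaled. No shoot marker was at 0 in any library, and at most 4 root markers were.

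Mitochondrial genes took a very small part of each library. They held 1078 to 4069 counts, which is 0.00830% to 0.0190% of all counts, or 83.0 to 190 counts per 1000000. Of the whole set, 1 gene had no count in any library, 42 had a count in every library, and 14 had at least 10 counts in every library. Plastid genes held 0.0716% to 0.221% of the counts, with the highest group mean in *hda15*.

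Per library, mitochondrial genes had 83.0 and 87.2 counts per 1000000 in *ahl22*, 90.2 and 178 in *frs7 frs12*, 83.3 and 112 in the triple mutant, and 190 and 144 in *hda15*, against 107 and 85.5 in the triple-table Col-0 pair and 106 and 159 in the shared pair of Col-0. The means were 85.1 ± 2.99 in *ahl22*, 134 ± 61.9 in *frs7 frs12*, 97.9 ± 20.6 in *ahl22 frs7 frs12* and 167 ± 32.7 in *hda15*, against 96.4 ± 15.4 and 132 ± 37.3 in the triple-table and shared pairs of Col-0 (SD, n = 2 each). The 2 libraries of *hda15* were both above those of *ahl22*, *ahl22 frs7 frs12* and the triple-table Col-0 pair, whereas they overlapped the range of the shared pair of Col-0 and of *frs7 frs12*. This share is a sum over the members and was not tested. Root markers, not TMM-scaled, also differed between the groups. They summed to 1716 to 1773 counts per 1000000 in *ahl22* and 1168 to 1224 in *frs7 frs12*. In *ahl22 frs7 frs12* they summed to 1194 to 1224 and in *hda15* to 2556 to 3056. The sums were 1737 to 2614 in the triple-table Col-0 pair and 3275 to 3416 in the shared pair of Col-0. Plastid genes held 0.221% and 0.151% of the counts in *hda15*, against 0.117% and 0.132% in the triple-table Col-0 pair and 0.0716% and 0.105% in the shared pair of Col-0. The part of either in the mitochondrial share was not tested.

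**Figure D1:**
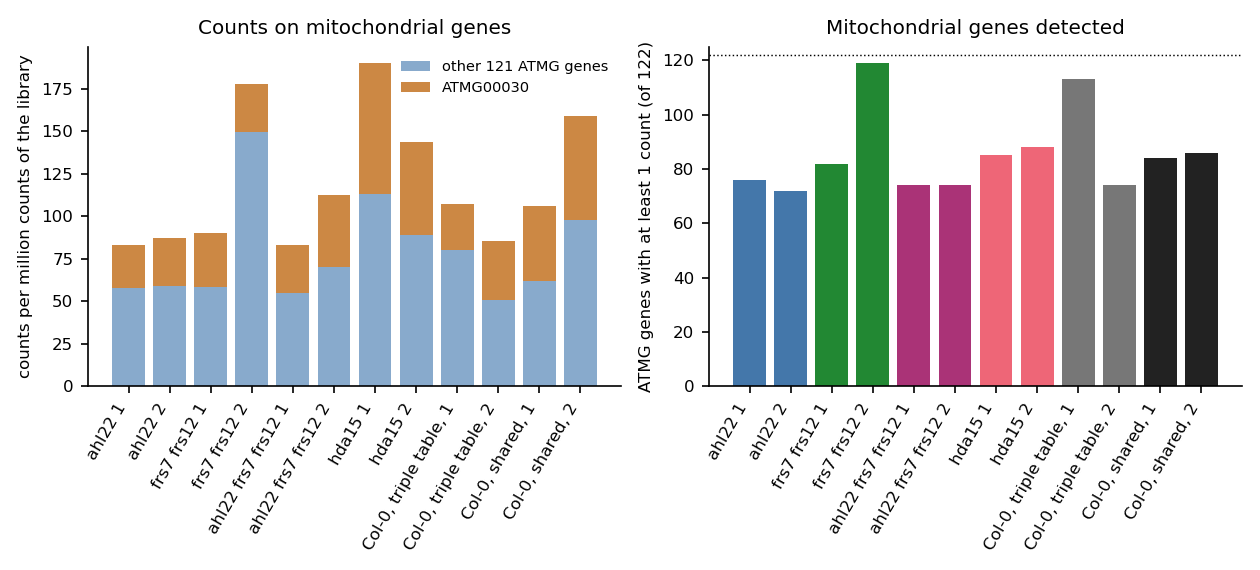
Counts on mitochondrial genes per 1000000 counts of each library, split into ATMG00030 and the other 121 genes (left), and the number of ATMG genes with at least 1 count, with a dotted line at 122 (right). The libraries *hda15* 1 and *frs7 frs12* 2 have the highest bars on the left (190 and 178), and *frs7 frs12* 2 and the triple-table Col-0 library 1 stand above the others on the right (119 and 113).

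A library of *frs7 frs12* (replicate 2) and a library of Col-0 (triple-table library 1) stood apart from their replicates. They had counts on 119 and 113 of the ATMG genes, against 72 to 88 in the other 10 libraries. Of the ATMG genes, 32 had at most 2 counts over *hda15* and the shared pair of Col-0 together, and these genes held 326 counts in *frs7 frs12* replicate 2 and 94 counts in the triple-table Col-0 library 1, against 3 to 23 in the other 10 libraries. Of the 12 libraries, 4 defined this list. In *frs7 frs12* replicate 2, 69 ATMG genes had their highest CPM of all libraries. The same number over all genes is not given here, and this library also had the most genes detected (23804). Of 4338 nuclear genes at 0 in *hda15* and the shared pair of Col-0, 980 and 1769 had a count in *frs7 frs12* replicates 1 and 2, 950 in the triple-table Col-0 library 1, and 120 to 218 in the other 5 libraries that did not define the list. Thus *frs7 frs12* replicate 1 also had many such nuclear genes, while it had counts on 82 ATMG genes and 23 counts on the 32 listed ones. The part of these nuclear genes in the mitochondrial counts was not tested.

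The counts were concentrated on a few genes. Over the 12 libraries, ATMG genes held 21996 counts, of which the 5 genes with the most counts held 10665 (48.5%). These were ATMG00030, ATP1, ATP9, NAD4 and ATMG00090. The median gene had 44 counts over all libraries, 41 genes had 100 or more and 15 had under 10. ATMG00030, for which the sources used here give no product, alone held 15.9% to 41.7% of the mitochondrial counts of a library. Without it, mitochondrial genes had 50.8 to 149 counts per 1000000.

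Of the members, 22 were classed as a subunit or assembly protein by the reference annotation or the study's supplementary tables. These held 7049 counts (32.0%). Complex V, the ATP synthase, had 5 genes and 3318 counts, 11.4% to 17.8% of the mitochondrial counts of a library. Complex I, the NADH dehydrogenase, had 7 genes and 1745 counts (6.35% to 10.0%). Fewer counts lay on the 2 genes classed as subunits of complex IV, cytochrome c oxidase (619), and the 4 classed as ribosomal proteins (537). The 3 named for cytochrome c assembly had 499 counts, and COB, the cytochrome b of complex III, had 331. The other 100 genes held 14947 counts, and between 65.2% and 72.4% of the mitochondrial counts of each library. These sources describe only part of the members, so the groups are not full lists. Further subunits may lie among the other 100 genes. These include ATMG01090 and ATMG01280, which were not classed. Their annotation notes name an ATP synthase 9 and a protein like a subunit of cytochrome c oxidase.

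For 17 of these genes a RefSeq coding length was used. RPKM values (counts per kilobase of coding sequence per 1000000 counts) allowed levels to be compared between them. The other genes were not compared by length. Introns and transcript ends were not included in the lengths. The highest was atp9, with a median of 18.4 RPKM over the 12 libraries (range 11.6 to 49.01). It did not overlap any of the other genes, the next of which were atp8 (median 5.15 RPKM, range 1.89 to 11.3), atp1, the catalytic-head subunit alpha (3.95 RPKM, 2.96 to 7.42), and nad9 (2.78 RPKM, 1.27 to 4.92). From atp8 downwards neighbours in this order overlapped in range. The lowest were nad3 (0.523 RPKM, 0 to 4.58) and ccmC (0.141 RPKM, 0 to 0.978).

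**Figure D2:**
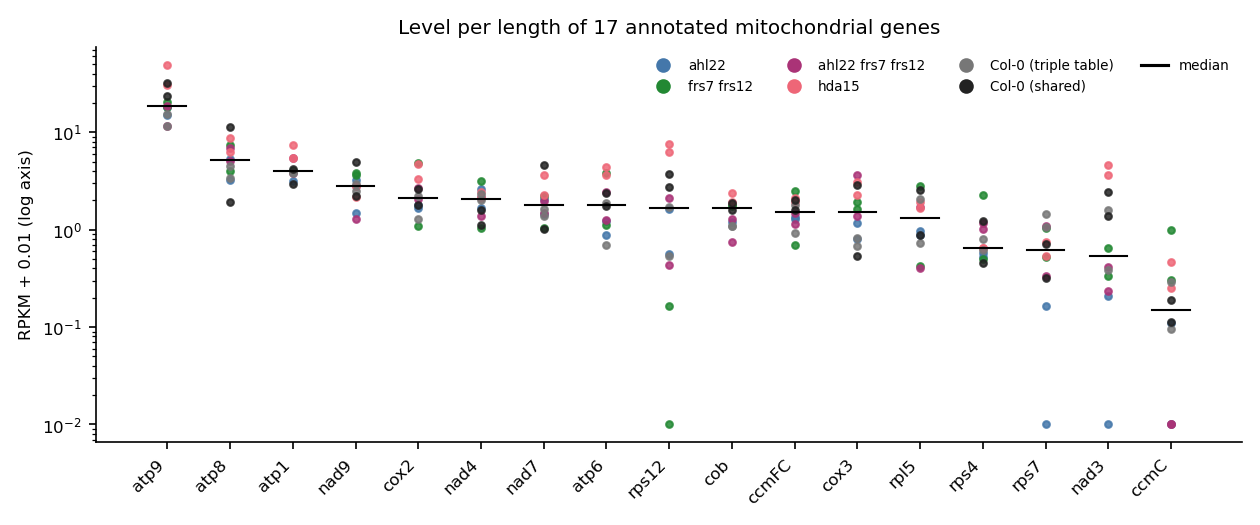
RPKM of 17 annotated mitochondrial genes on a log axis, with 0.01 added so that libraries at 0 can be drawn. Each point is a library, coloured by group, and the black line is the median of the 12 libraries. The gene atp9 lies above all others, and rps12 and nad3 have the widest spread, with *hda15* at the top.

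Among all 6 groups, the 2 Col-0 pairs counted apart, 14 of 49 ATMG genes tested differed in edgeR's quasi-likelihood F test (Benjamini-Hochberg adjusted p below 0.05). Of all genes tested, 65.7% passed the same test, so the share of the mitochondrial genes was below that of the whole table. The other 73 ATMG genes had too few counts to be tested. The 5 with the smallest p were ATMG00030 (edgeR adjusted p = 1.83e-06), RPS12 (7.35e-05), ATP9 (9.72e-05), NAD3 (3.95e-04) and ATMG01090, whose nuclear match AT2G07777 is annotated as an ATP synthase 9 gene (0.00178). Also among the 14 were ATP1 and ATP6-1 of complex V, and COX3 of complex IV. Without *frs7 frs12* replicate 1 the count was 33, and without the triple-table Col-0 library 1 or 2 it was 24 or 23. Without both libraries that stood apart, a setting chosen after seeing the data, it was 16.

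ATMG00030 (TMM-scaled CPM throughout) had 23.4 and 25.4 CPM in *ahl22*, 31.7 and 27.1 in *frs7 frs12*, 29.4 and 43.9 in the triple mutant, and 86.3 and 56.9 in *hda15*, against 26.5 and 34.1 in the triple-table Col-0 pair and 45.4 and 63.2 in the shared pair of Col-0. The libraries of *hda15* and of the shared pair of Col-0 were above all others and overlapped each other.

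RPS12 (ATMG00980), given as counts because they were few, had 8 and 3 counts in *ahl22*, 0 and 1 in *frs7 frs12*, 11 and 2 counts in the triple mutant, and 51 and 49 in *hda15*, against 9 and 3 in the triple-table Col-0 pair and 15 and 18 in the shared pair of Col-0. NAD3 (ATMG00990), its neighbour, had 0 and 1 counts in *ahl22*, 3 and 2 in *frs7 frs12*, 2 and 1 counts in the triple mutant, and 35 and 22 in *hda15*, against 8 and 2 in the triple-table Col-0 pair and 7 and 11 in the shared pair of Col-0. Both genes had more counts in each *hda15* library than in any other, RPS12 had the fewest in *frs7 frs12* and NAD3 the fewest in *ahl22*. Scaled for depth, the CPM of RPS12 was 2.81 ± 0.208 in *hda15* and 1.26 ± 0.276 in the shared pair of Col-0 (SD, n = 2 each).

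ATP9 (ATMG01080) had 3.12 and 3.70 CPM in *ahl22*, 4.03 and 4.39 in *frs7 frs12*, 2.70 and 4.32 in the triple mutant, and 12.3 and 7.13 in *hda15*, against 3.34 and 2.56 in the triple-table Col-0 pair and 5.41 and 7.54 in the shared pair of Col-0. ATP6-1 (ATMG00410), the proton-channel subunit of the same complex, had 0.920 and 1.25 CPM in *ahl22*, 1.29 and 4.22 in *frs7 frs12*, 1.50 and 2.91 in the triple mutant, and 5.70 and 4.29 in *hda15*, against 0.765 and 2.10 in the triple-table Col-0 pair and 2.07 and 2.84 in the shared pair of Col-0. ATP1 (ATMG01190) had 4.39 and 5.45 CPM in *ahl22*, 6.01 and 5.78 in *frs7 frs12*, 6.00 and 8.65 in the triple mutant, and 12.7 and 8.52 in *hda15*, against 5.70 and 5.77 in the triple-table Col-0 pair and 4.63 and 6.57 in the shared pair of Col-0. In ATP9 *hda15* and the shared pair of Col-0 overlapped each other and lay above all other libraries. In ATP6-1 only *hda15* stood above every other library in CPM, by a small margin (4.29 against 4.22). In RPKM, without TMM scaling, *frs7 frs12* replicate 2 (3.81) was above *hda15* replicate 2 (3.59). In ATP1 the lower *hda15* library overlapped *ahl22 frs7 frs12*. RefSeq holds 2 mitochondrial coding sequences named atp6, and how reads were shared between them is not known here.

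Of the genes named as subunits of the other complexes, those with the most counts did not pass the test among the 6 groups. NAD4 (ATMG00580), a proton-pumping subunit of complex I, had 2.27 and 3.44 CPM in *ahl22*, 1.52 and 4.502 in *frs7 frs12*, 2.10 and 3.33 in the triple mutant, and 4.03 and 3.204 in *hda15*, against 2.92 and 3.35 in the triple-table Col-0 pair and 2.42 and 1.70 in the shared pair of Col-0. COX2 (ATMG00160), a subunit of the oxidase that takes electrons from cytochrome c, had 1.204 and 1.25 CPM in *ahl22*, 0.837 and 3.61 in *frs7 frs12*, 1.65 and 2.16 in the triple mutant, and 4.13 and 2.66 in *hda15*, against 1.67 and 0.984 in the triple-table Col-0 pair and 1.42 and 2.11 in the shared pair of Col-0. COB (ATMG00220) had 2.05 and 1.25 CPM in *ahl22*, 2.06 and 2.00 in *frs7 frs12*, 0.899 and 1.58 in the triple mutant, and 2.51 and 2.90 in *hda15*, against 1.25 and 1.25 in the triple-table Col-0 pair and 1.92 and 2.27 in the shared pair of Col-0. NAD4 was lower in the shared pair of Col-0 than in *hda15* and the triple-table Col-0 pair and overlapped between the other groups, COX2 was high in *hda15* and in 1 library of *frs7 frs12*, and COB was highest in both *hda15* libraries. The edgeR adjusted p of the F test was 0.590 for NAD4, 0.0856 for COX2 and 0.0906 for COB. CCB452 (ATMG00180), of cytochrome c assembly, ranged between 0.914 CPM in *frs7 frs12* replicate 1 and 3.17 CPM in replicate 2, the lowest and highest of the 12 libraries, with an edgeR adjusted p of 0.439.

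**Figure D3:**
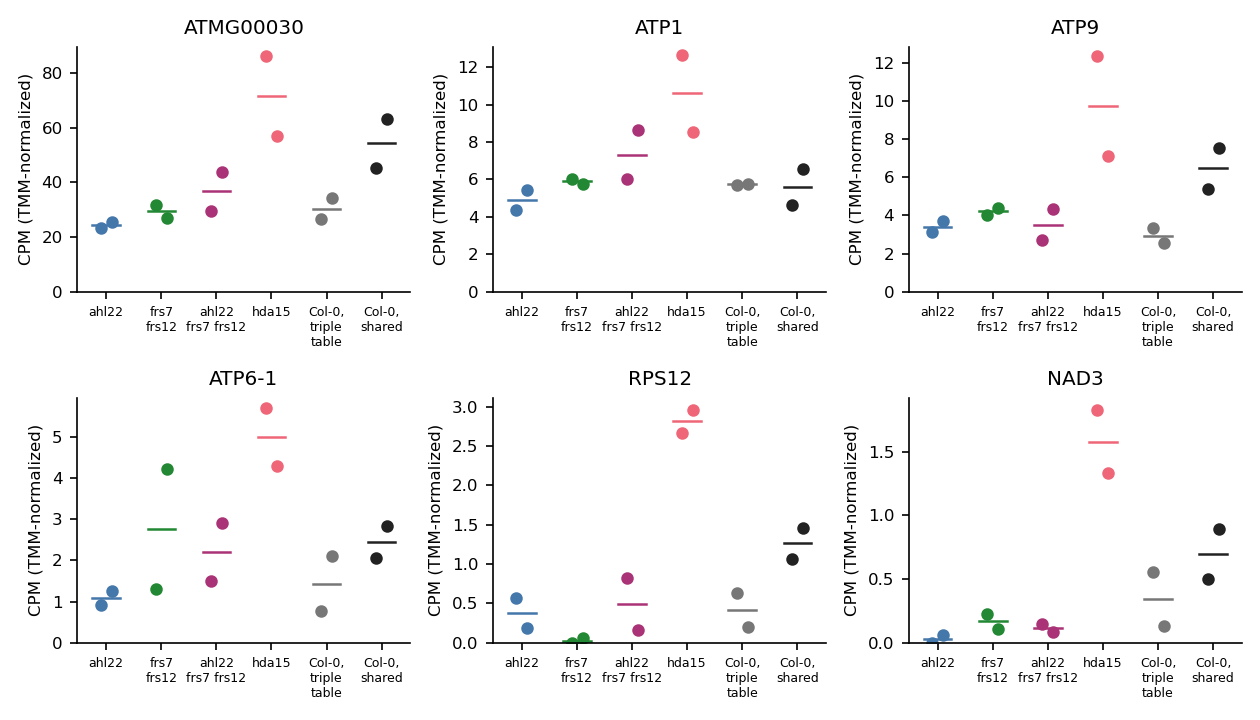
CPM (TMM-scaled over the 12 libraries) of 6 mitochondrial genes by group. Points are libraries and lines are group means (n = 2). In RPS12 and NAD3 both *hda15* libraries lie above every other library.

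Each mutant was then set against the Col-0 libraries deposited beside it, and also against the other pair. A gene was called at an adjusted p below 0.05 and an absolute log2 fold change above 1, by the quasi-likelihood test of edgeR, Benjamini-Hochberg adjusted for all genes of the fit, and log2 fold changes are given with their standard errors.

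In *ahl22*, 6 of 33 mitochondrial genes tested were called lower than in the shared pair of Col-0 and 0 higher, while of all genes 11.2% were called lower and 7.07% higher. The median log2 fold change of the mitochondrial genes was -0.73, against 0.02 over all genes, and 31 of the 33 were negative. ATMG01090 had 1.13 and 0.501 CPM in *ahl22*, against 2.99 and 2.67 CPM in the shared pair of Col-0, a log2 fold change of -1.82 ± 0.44 (edgeR adjusted p = 6.67e-04). ATMG00030 had one of -1.15 ± 0.12 (edgeR adjusted p = 6.71e-11), and 2 complex V genes, ATP6-1 and ORF25 (ATMG00640), had -1.16 ± 0.42 and -1.40 ± 0.51 (edgeR adjusted p = 0.0192 and 0.0173). RPS12 (-1.75 ± 0.62) and ATMG01200 (-1.09 ± 0.41) were the others. Without the shared Col-0 replicate 2 the count was 1, and without replicate 1 it was 9. With 1 of the 4 libraries left out, whichever it was, ORF25 was no longer called (edgeR adjusted p up to 0.167), and ATP6-1 was not called without *ahl22* replicate 1 or the shared Col-0 replicate 2 (adjusted p = 0.121 and 0.187). Of these fits, ATMG01200 was called only in that without the shared Col-0 replicate 1, and ATMG00030 missed the fold threshold without replicate 2 (-0.89). Against the triple-table Col-0 pair, 0 of 28 genes were called by edgeR, where 0.389% of all genes were called lower and 0.368% higher, and the median was -0.12. At an unadjusted p below 0.05 it was 1 gene (20.1% of all genes), and DESeq2 called 0 (0.536% of all genes), with an adjusted p for only 1 of them. There ATMG00030 had a log2 fold change of -0.29 ± 0.13 (edgeR adjusted p = 0.232). Without the triple-table Col-0 library 2 the count was 2, both lower. These comparisons share the *ahl22* libraries.

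In *frs7 frs12*, 3 of 39 genes were called higher and 3 lower than in the shared pair of Col-0, where of all genes 7.18% were called higher and 11.7% lower. The largest decrease was that of RPS12, with 1 count over the *frs7 frs12* libraries against 33 over the shared pair of Col-0, a ratio of 0.0271 per total count (95% interval 6.67e-04 to 0.162, for counting error only; edgeR adjusted p = 1.23e-04). ATMG00090 had 0.914 and 2.11 CPM in *frs7 frs12*, against 4.27 and 4.86 CPM in the shared pair of Col-0, a log2 fold change of -1.54 ± 0.38 (edgeR adjusted p = 0.00135), and ATMG01330 was the third decrease (-1.99 ± 0.64). The called increases were ATMG00830, ATMG00560, whose nuclear match is annotated as a nucleic acid-binding protein, and ATMG00690. ATMG00830 had 14 and 45 counts in *frs7 frs12*, against 0 and 5 counts in the shared pair of Col-0 (log2 fold change 3.199 ± 0.77, edgeR adjusted p = 0.00114). It was called in each fit with 1 library left out, but its log2 fold change was 2.14 without the shared Col-0 library at 0 and 7.78 with that library as the only Col-0 one, which depends on the prior count. ATMG00690 was not called without *frs7 frs12* replicate 2 or the shared Col-0 replicate 1 (adjusted p = 0.0934 and 0.347). ATMG00560 had 1.07 and 3.06 CPM in *frs7 frs12*, against 0.570 and 0.973 CPM in the shared pair of Col-0, so its 2 mutant libraries were both higher but far apart. Without *frs7 frs12* replicate 2, ATMG00560 had a log2 fold change of 0.47, where it was 1.46 with both libraries. Against the triple-table Col-0 pair, 0 of 41 genes were called by edgeR (0.65% of all genes were called higher and 1.08% lower) and 0 by DESeq2 (1.25% of all genes). At an unadjusted p below 0.05 it was 9 genes (19.2% of all genes), all 9 higher in *frs7 frs12*. The median log2 fold change of the mitochondrial genes was 0.08 against the shared pair of Col-0 and 0.64 against the triple-table Col-0 pair, where 35 of the 41 were positive, and it was 0.02 and 0.00 over all genes. A gene could pass the count filter through either group alone, and 28 genes passed in *ahl22* with the triple-table Col-0 pair. The part of this filter in the 0.64 and the 35 for *frs7 frs12* against the triple-table Col-0 pair was not tested. In that comparison 4 genes were called without the triple-table Col-0 library 1 and 1 gene without library 2.

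In *hda15*, 3 of 42 genes were called higher than in the shared pair of Col-0 and 0 lower, where 4.05% of all genes were called higher and 3.65% lower. They were ATP6-1 (log2 fold change 1.03 ± 0.30, edgeR adjusted p = 0.0211), RPS12 (1.15 ± 0.38, adjusted p = 0.0345) and ATMG00590, whose nuclear match is annotated as a cytochrome b/b6 protein, with 1.73 and 1.87 CPM in *hda15*, against 0.641 and 0.730 CPM in the shared pair of Col-0 (1.38 ± 0.45, adjusted p = 0.0345). The median over the mitochondrial genes was 0.37, against 0.00 over all genes, and 37 of the 42 were positive. DESeq2 called 0 of these genes, as did edgeR in a fit of all 12 libraries or without the shared Col-0 replicate 1. Without *hda15* replicate 1 the count was 1, and without the shared Col-0 replicate 2 it was 5. Of the 4 fits with 1 library left out, ATMG00590 lost its call in 4 (edgeR adjusted p up to 0.218), RPS12 in all but that without *hda15* replicate 1 (up to 0.257), and ATP6-1 in those without *hda15* replicate 1 or the shared Col-0 replicate 1 (0.0997 and 0.193).

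Against the triple-table Col-0 pair, *hda15* had the most mitochondrial genes called of any comparison of a mutant here. Of 42 tested, 14 were higher and 0 lower, where 8.09% of all genes were called higher and 3.33% lower. The median was 1.099, against -0.02 over all genes, and 41 of the 42 were positive. A gene could pass the count filter through either group alone, and 28 genes passed in *ahl22* with the same Col-0 pair. The part of this filter in the median and in the 41 positive values was not tested. With at least 10 counts required in every library, 9 genes were called, of which 8 were among the 14. Of the genes named by function above, 3 of 5 of complex V (ATP6-1, ATP8 and ATP9) and both of complex IV (COX2 and COX3) were higher. So were 2 of 5 complex I genes tested (NAD3 and NAD7) and 1 of 3 ribosomal protein genes tested (RPS12). Subunits that the sources do not name, and the unclassed ATMG01090 and ATMG01280, are not in these counts. RPS12 had the highest log2 fold change (2.77 ± 0.53, edgeR adjusted p = 0.00207). ATMG01170 had 1.67 and 2.18 CPM in *hda15*, against 0.556 and 0.262 CPM in the triple-table Col-0 pair, and NAD3 had a log2 fold change of 2.20 ± 0.63 (edgeR adjusted p = 0.0201). COX3 had 2.72 and 1.87 CPM in *hda15*, against 0.626 and 0.525 CPM in the triple-table Col-0 pair, a log2 fold change of 1.99 ± 0.48 (edgeR adjusted p = 0.00829). ATMG00030, ATMG00650, ATMG00670, ATMG01090 and ATMG01200 were also called. Of these 14, 7 are matched by annotation notes to a nuclear gene of the tables. Whether the others have nuclear copies was not examined gene by gene. DESeq2 called 7 genes, all higher, and without *hda15* replicate 1 the count was 2. With the triple-table Col-0 library 1 as the only Col-0 library, 9 were higher and 2 lower. NAD3 and ATMG01170 kept their call only in the fit without the triple-table Col-0 library 1, where NAD3 had a log2 fold change of 3.54, and lost it without any of the other 3 libraries (NAD3 1.49 to 2.41, edgeR adjusted p up to 0.207, and ATMG01170 up to 0.109). COX3 lost its call without *hda15* replicate 1 (edgeR adjusted p = 0.134). The libraries of *hda15* had 2556 to 3056 CPM of root markers, against 1737 to 2614 CPM in the triple-table Col-0 pair, and plastid genes held 0.151% to 0.221% of their counts, against 0.117% to 0.132%. The part of either in the result was not tested.

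In *ahl22 frs7 frs12*, 0 of 29 genes were called against its own Col-0 pair by edgeR, where 0.548% of all genes were called higher and 0.903% lower, and 0 by DESeq2 (1.03% of all genes). At an unadjusted p below 0.05 they were COX3 (1.80 ± 0.61, edgeR adjusted p = 0.107) and ATMG00060 (19.7% of all genes). COX3 had 1.12 and 2.99 CPM in *ahl22 frs7 frs12*, against 0.626 and 0.525 CPM in the triple-table Col-0 pair. Against the shared pair of Col-0, 2 of 33 genes were called lower and 0 higher, where 12.2% of all genes were called lower and 8.21% higher. These were ATMG01090 (log2 fold change -1.0002 ± 0.43, edgeR adjusted p = 0.0454), at the threshold, and ATMG01330 (-1.997 ± 0.67). Without *ahl22 frs7 frs12* replicate 2 the count was 6, and without the shared Col-0 replicate 2 it was 2 with both genes higher. With the replicate number as a block it was 1, and DESeq2 called 0.

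The 2 Col-0 pairs were compared with each other in the same way. In the triple-table Col-0 pair 4 of 34 mitochondrial genes were called lower than in the shared pair of Col-0 and 0 higher, where 9.92% of all genes were called lower and 6.61% higher. ATP9 had a log2 fold change of -1.13 ± 0.29 (edgeR adjusted p = 0.00441), ATMG01090 of -1.57 ± 0.46 and ATMG01170 of -1.74 ± 0.64, and the fourth was ATMG00650. The median was -0.46, against 0.02 over all genes. Without the shared Col-0 replicate 2 the count was 0, and without the triple-table library 1 it was 7. Without the triple-table library 2 ATP9 had a log2 fold change of -0.94, below the fold threshold. For ATP9, *ahl22* had a log2 fold change of -0.92 ± 0.26 against the same shared Col-0 pair, which passed the test (edgeR adjusted p = 0.00275) but not the fold threshold.

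**Figure D4:**
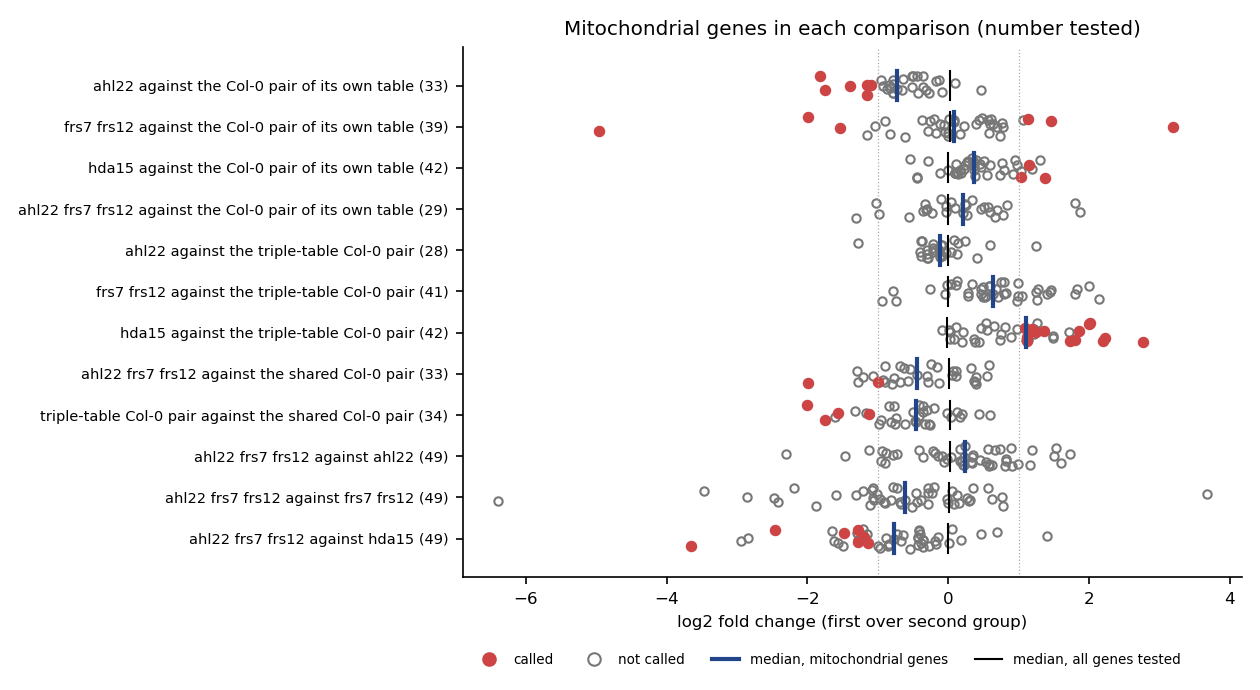
Log2 fold changes of the mitochondrial genes tested in each comparison (number tested in brackets), first group over second. A gene could pass the count filter through either group alone. Red points were called, open points were not, the blue line is the median of the mitochondrial genes and the black line that of all genes tested. The medians of *hda15* lie right of 0 against both Col-0 pairs (0.37 and 1.099), as do those of *frs7 frs12* (0.08 against the shared and 0.64 against the triple-table pair), and that of *ahl22* against the shared pair of Col-0 lies left of 0 (-0.73).

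The triple mutant was set beside the other mutants in a fit of all 12 libraries, in which 49 mitochondrial genes were tested and no Col-0 library entered the contrast. Against *ahl22*, 0 genes were called by edgeR (0.887% of all genes were called higher and 1.24% lower) or DESeq2 (1.88% of all genes, with an adjusted p for 35 of the 49), and 4 had an unadjusted p below 0.05 (25.7% of all genes), all higher in *ahl22 frs7 frs12*. These included ATMG00030 (0.58 ± 0.20, edgeR adjusted p = 0.0652) and COX3. Against *frs7 frs12*, 0 genes were called by edgeR (0.343% higher and 0.423% lower of all genes) or DESeq2 (0.664% of all genes, with an adjusted p for 3 of the 49), and 8 had an unadjusted p below 0.05 (17% of all genes), 7 lower and RPS12 higher in *ahl22 frs7 frs12*. RPS12 had a log2 fold change of 3.67 ± 1.26 there (edgeR adjusted p = 0.118), on 13 counts over the libraries of *ahl22 frs7 frs12* and 1 count over those of *frs7 frs12*.

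Against *hda15*, 7 of the 49 were called lower in *ahl22 frs7 frs12* and 0 higher, where 9.15% of all genes were called lower and 4.13% higher. NAD3 had 3 counts over the *ahl22 frs7 frs12* libraries and 57 over those of *hda15*, a ratio of 0.0769 per total count (95% interval 0.0154 to 0.236, for counting error only; edgeR adjusted p = 0.00209). RPS12 had a log2 fold change of -2.45 ± 0.65 (edgeR adjusted p = 0.00466), ATP9 of -1.49 ± 0.30 (adjusted p = 4.68e-04) and COB of -1.13 ± 0.41 (adjusted p = 0.0328). ATP6-1, ATMG00670 and ATMG01090 were the other 3, of which ATMG00670 lost its call in 2 and ATMG01090 in 3 of the 4 fits with 1 library of these groups left out. RPS12 lost its call without *ahl22 frs7 frs12* replicate 2 (edgeR adjusted p = 0.0732). DESeq2 called 4, and without *hda15* replicate 1 the count was 3.

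The counts of members were set beside those of their nuclear matches. The annotation notes of nuclear genes name 53 ATMG genes as their closest match, and for 45 of them the nuclear gene is in the tables, which gave 46 pairs. Over the 12 libraries, 36 pairs were within 2-fold of each other, as were all 15 pairs whose ATMG gene had 100 or more counts. In the other 10 pairs the nuclear gene had the more counts, by up to 18.7-fold (ATMG00910 with 3 counts and AT2G07773 with 56). ATP9 had 933 counts and AT2G07671, with the same coding sequence, 1001. In no library did these differ by more than 27 counts, a gap found in the triple-table Col-0 library 2 (39 of ATP9 and 66 of AT2G07671). Between the Col-0 pairs ATP9 was called lower in the triple-table pair, whereas AT2G07671 was not called (log2 fold change -0.74 ± 0.27). RPS12 had 170 counts and AT2G07675 175, with a difference of at most 6 in a library, and ATP6-1 had 468 counts and AT2G07741 578. NAD3 differed more, with 94 counts against 161 of AT2G07751. Single libraries could differ far more than the sums, since ATP8 had 89 counts and AT2G07707 2 in *hda15* replicate 1, and RPS4 had 42 counts and AT2G07734 4 in *frs7 frs12* replicate 2. From these tables the reads of such a gene and of its copy cannot be told apart, and how reads with several positions were counted is not given in the sources used here.

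**Figure D5:**
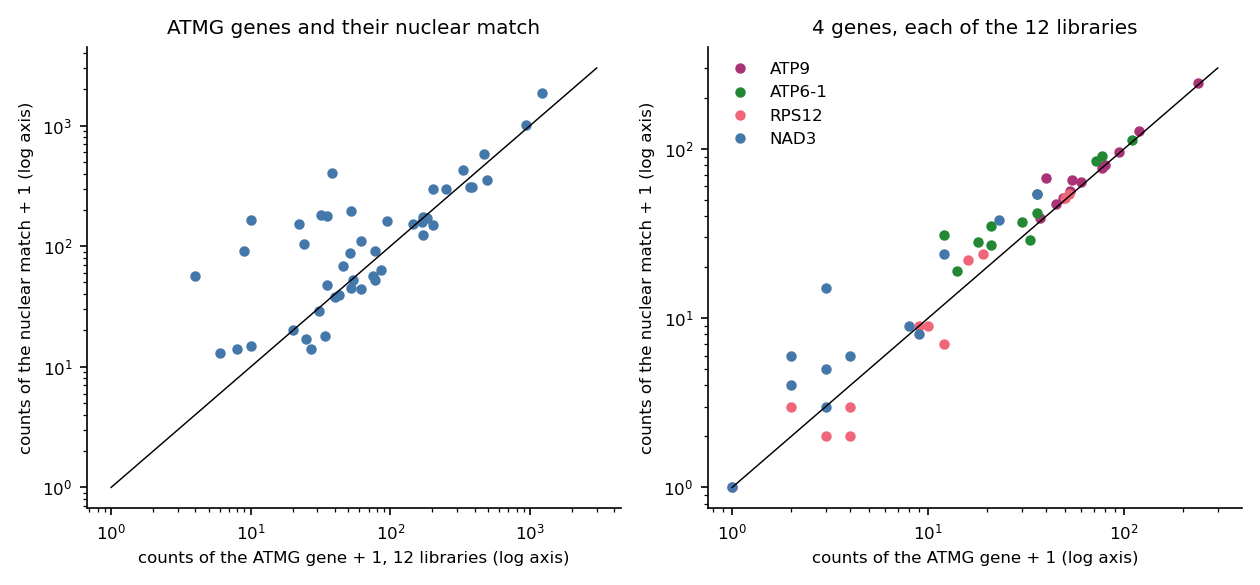
Counts of ATMG genes and of the nuclear gene that matches each, with 1 added, on log axes. Each point on the left is 1 of 46 pairs summed over the 12 libraries, each point on the right is a library, and the line marks equal counts. Pairs with 100 or more mitochondrial counts lie within 2-fold of the line, and 10 others lie further above it. ATP9 lies within 27 counts of it in every library, the largest gap being 39 against 66.

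The nuclear copies differed between libraries too. The 64 nuclear genes with mitochondrial sequence had 37.7 and 36.9 counts per 1000000 in *ahl22*, 40.9 and 98.7 in *frs7 frs12*, 38.3 and 43.5 in the triple mutant, and 73.1 and 64.2 in *hda15*, against 58.7 and 32.1 in the triple-table Col-0 pair and 47.1 and 63.1 in the shared pair of Col-0. In *hda15* against the triple-table Col-0 pair, 9 of 23 copies tested were called higher and 0 lower, where 8.09% of all genes were called higher and 3.33% lower. AT2G07675, the copy of RPS12, had 53 and 50 counts in *hda15*, against 8 and 2 in the triple-table Col-0 pair (log2 fold change 3.07 ± 0.56, edgeR adjusted p = 0.00149). In *frs7 frs12* it had 0 and 2 counts, against 21 and 23 in the shared pair of Col-0 (edgeR adjusted p = 5.67e-05). This decrease was not particular to *frs7 frs12*. Against the same shared pair it was also called lower in *ahl22* (-2.45 ± 0.63) and the triple mutant (-2.57 ± 0.68). The triple-table Col-0 pair was called lower as well (-2.28 ± 0.64, edgeR adjusted p = 0.00856).

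Nuclear genes that code for subunits of the same complexes, or for mitochondrial transcription and RNA processing, were examined as 7 lists of 86 genes, of which 85 were tested in each comparison. In *ahl22* against the shared pair of Col-0 4 were called higher and 1 lower (7.07% and 11.2% of all genes), with a median log2 fold change of 0.14 (0.02 over all genes), whereas the mitochondrial genes had a median of -0.73. Against the same pair, 7 were called higher and 0 lower in *frs7 frs12* (median 0.28), where 7.18% of all genes were called higher and 11.7% lower. There were 3 and 0 in *hda15* (median 0.25, with 4.05% and 3.65% of all genes), 9 and 0 in the triple mutant (median 0.39, 8.21% and 12.2%), and 4 and 0 in the triple-table Col-0 pair (median 0.28, 6.61% and 9.92%). In the triple mutant the counts were 0 and 0 against its own Col-0 pair (median 0.15), where 0.548% of all genes were called higher and 0.903% lower. Against the triple-table Col-0 pair, *hda15* had 2 called higher, 0 lower (8.09% and 3.33% of all genes) and a median of -0.02, where the mitochondrial genes had 1.099. AT5G25450, a complex III subunit, was called higher in *hda15* against both the shared and the triple-table Col-0 pairs (log2 fold changes 1.96 ± 0.26 and 1.99 ± 0.28). The subunit AT5G11770 of complex I had a log2 fold change of 1.29 ± 0.15 in *hda15* against the triple-table Col-0 pair, and of -1.04 ± 0.07 in *ahl22* against the shared pair. The Col-0 pairs differed in it too, with 141 and 117 CPM in the triple-table and 236 and 239 CPM in the shared pair. It had 121 and 111 CPM in *ahl22* and 346 and 283 CPM in *hda15*. It was not called in *hda15* against the shared pair or in *ahl22* against the triple-table pair. AT3G46430, listed with complex V, was higher in *ahl22* (1.14 ± 0.10) and *frs7 frs12* (1.48 ± 0.10) than in the shared pair of Col-0, and it was also higher in the triple-table than in the shared pair of Col-0 (1.36 ± 0.11). Among the 6 groups, 69 of the 85 differed, where 65.7% of all genes did.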

How the data were processed

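Poly(A)-selected RNA of whole seedlings was sequenced in paired-end mode. The authors used HISAT2 with the TAIR10 genome and Subread for gene counts, and deposited unnormalized counts in 4 tables. The annotation version, the strand setting and the treatment of reads with several positions are not given in the sources used here. The 16 columns hold 12 distinct libraries, since 3 tables repeat a Col-0 pair. The columns of the other Col-0 pair, in the table of the triple mutant, are numbered 1 and 2 but match no sample label of their own, so these numbers were used as names only. The labels and the study's methods name different library kits and growth media. The members and gene lists were chosen with earlier results of these data known.

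Counts were analysed in R 4.3.3 with edgeR 4.0.16 (TMM over all genes, filterByExpr by group, quasi-likelihood tests without the robust option, Benjamini-Hochberg adjustment over all genes tested). Fits were tested on simulated data, in which only genes with more counts than most ATMG genes were changed. The simulation thus does not cover most members. A gene was called at an adjusted p below 0.05 and an absolute log2 fold change above 1. The study used DESeq2, which was kept as an alternative (version 1.42.0). Pairs of groups were fitted on their 4 libraries, and contrasts between mutants and the test among 6 groups on all 12. Libraries held 12537767 to 21400580 counts, and p-values measure the spread between 2 libraries a group. Intervals of count ratios (95%, exact) cover counting error only.

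Genes named are the annotated subunits, the 5 with most counts, up to 5 called in each direction of a comparison with at least 20 normalized counts and replicates that do not overlap, and the 5 with the smallest p among 6 groups. Other called genes were named after their values were seen. Nuclear copies were found with blastn 2.17.0 on RefSeq TAIR10.1. Lists of 15 root and 14 shoot markers and of 86 nuclear partner genes were written from general knowledge. Alternatives were DESeq2, RLE factors, nuclear library sizes, other count filters, a fit of all libraries, each library left out, and the replicate number as a block. The correlations of same-numbered deviations between groups were -0.0201 to 0.192, so the numbers were not taken as pairing. Data of other assays of the series were not used here.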

Additional observations from a re-analysis of the deposited data

Results flagged for a closer look

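Among 22 values examined over the 4 Col-0 libraries, 1 had a library far from the others, and chance does this in about 5% of groups. COX3 (ATMG00730) had 0.626 and 0.525 CPM in the triple-table Col-0 pair and 0.427 and 2.35 CPM in the shared pair of Col-0. The gap of the shared Col-0 replicate 2 to the nearest library was 0.897 of the whole range, above Dixon's 95% limit for 4 libraries.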

How the results depend on the processing

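Changes of scaling alone (RLE factors) moved no count of mitochondrial genes called by over 1.5 times, and nuclear library sizes moved 1, *ahl22 frs7 frs12* against the shared pair of Col-0, to 1 gene. DESeq2 called 3 genes in *ahl22* against its own Col-0 pair, 0 in *hda15* against its own and 7 against the triple-table pair, 0 in *ahl22 frs7 frs12* against the shared pair, 1 between the Col-0 pairs and 4 in *ahl22 frs7 frs12* against *hda15*. With at least 10 counts in every library these counts were 3 (*ahl22*), 2 (*frs7 frs12*), 9 (*hda15* against the triple-table pair), 1 (*ahl22 frs7 frs12* against the shared pair), 2 (Col-0 pairs) and 8 (6 groups). With no filter they were 13 for *frs7 frs12* against its own and 2 against the triple-table Col-0 pair, 28 among the 6 groups, and 2 and 1 for *ahl22 frs7 frs12* against *ahl22* and *frs7 frs12*. The fit of all 12 libraries called 0 in *hda15* against its own pair. Apart from the fewer or additional genes tested under a filter, the cause was not tested. Shares over all genes are not given in this section, nor for the fits above with a library left out. These counts thus do not show whether mitochondrial genes moved apart from all genes.

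Leaving out each library in turn gave 1 to 9 genes in *ahl22*, 8 to 34 in *frs7 frs12*, 0 to 5 in *hda15* and 0 in *ahl22 frs7 frs12* against their own Col-0 pairs. Against the other pair it gave 0 to 2, 0 to 4, 2 to 15 and 2 to 6, between the Col-0 pairs 0 to 7, among the 6 groups 13 to 33, and for *ahl22 frs7 frs12* against *ahl22*, *frs7 frs12* and *hda15* 0, 0 and 3 to 9. A group left with 1 library was assumed to vary like the other groups of the fit. Of 258 alternative values of named genes' fold changes, 185 kept the call, 73 lost it and 0 changed direction.

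With the replicate number as a block, 6 genes were called in *ahl22*, 6 in *frs7 frs12* and 3 in *hda15* against their own Col-0 pair, and 1 in the triple mutant against the shared pair. In a block fit of the 10 libraries with labelled numbers, without the triple-table Col-0 pair, 14 genes differed among the remaining 5 groups, and 0, 1 and 8 were called in *ahl22 frs7 frs12* against *ahl22*, *frs7 frs12* and *hda15*, so there the libraries changed with the block. The correlations of same-numbered libraries (-0.0201 to 0.192) were not all above 0.1. No block was fitted with the triple-table Col-0 pair, whose column numbers match no sample label.

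Without ATMG00030 the mean share was 58.2 counts per 1000000 in *ahl22*, 103.9 in *frs7 frs12*, 62.6 in the triple mutant and 100.9 in *hda15*, against 65.4 and 79.8 in the triple-table and shared Col-0 pairs. Without genes that annotation notes match to a nuclear gene it was 57.5, 85.9, 65.8 and 113, against 65.2 and 92.8. The genes kept there may also have nuclear copies. With 1 library left out it was 83.0 to 87.2 in *ahl22*, 90.2 to 178 in *frs7 frs12*, 83.3 to 112 in *ahl22 frs7 frs12* and 144 to 190 in *hda15*, against 85.5 to 107 and 106 to 159 in the Col-0 pairs. Of the 122 members, 73 had too few counts to be tested in the fit of all libraries.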
